A study of Oryctolagus cuniculus with 9 samples.

Results

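Endothelial cells line the blood and lymphatic vessels, and the genes described here are 36 markers and regulators of these cells, taken by name at a time when earlier results of these data were known. Of the 36, 35 were matched by symbol in a count table of 28788 genes, and all 35 passed the filter on low counts. PLVAP, the diaphragm protein of fenestrated vessels, was not analysed here. The 35 comprise 25 pan-endothelial genes, 5 genes of activated or angiogenic endothelium (SELE, SELP, ANGPT2, APLN and APLNR), 4 lymphatic genes (FLT4, LYVE1, PROX1 and MMRN1) and ANGPT1, a ligand of the endothelium that is made mainly by mural and stromal cells.

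The study tested a hydrogel stent for repair of the urethra in rabbits (Oryctolagus cuniculus), and sequencing was used to examine how the stent acts. Polyadenylated RNA of urethral tissue was measured in 9 libraries, 3 each of the codes S9, S7 and S6. The sources used here do not give the treatment, time, strain or age behind each code, what the groups share, or which code is a control. It is not stated if each library is a separate animal either, and p-values below therefore cover only the spread among the libraries.

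Blood endothelium is held together by junction proteins, chiefly VE-cadherin and claudin-5, and is kept alive and quiescent by receptor tyrosine kinases of the VEGF and TIE families. When inflamed, it puts selectins on its surface, which catch leukocytes from the stream. Lymphatic endothelium is set apart by the transcription factor PROX1 and by VEGFR-3, the receptor for VEGF-C and VEGF-D. These roles are known from human and mouse, and are given as background.

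Total counts lay between 35127085 and 36832773 per library, with 19025 to 19417 genes detected, so depth differed little. In each group 1 library, S9_4, S7_3 or S6_4, stood apart by few mitochondrially encoded reads: ATP6 was at 22.6, 20.9 and 26.5 CPM (read counts scaled to a common library size), against 1937 to 3387 CPM in the other 6. Results are therefore also given for those 6. Levels of some other cell types moved with the groups as well, while the sums of 5 epithelial and of 4 fibroblast markers overlapped between S9 and S6. The summed level of 5 neutrophil markers was 452 to 754 CPM in S9, 2898 to 6127 CPM in S7 and 8504 to 14798 CPM in S6. Smooth muscle markers, also 5, summed to 5808 to 10668 CPM in S9, 2173 to 8747 CPM in S7 and 1429 to 2712 CPM in S6. In bulk tissue, fewer endothelial cells and less RNA per cell cannot be told apart, and a larger share of 1 cell type lowers the CPM of the others. The part of the other cell types in the results below was not tested.

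The defining endothelial genes were present in every library, with at least 182 CPM of PECAM1 and 63.2 CPM of CDH5. Compared per gene length, in FPKM, the deposited unit, which divides reads by depth and gene length, the mean over 9 libraries was highest for RAMP2 (148 FPKM), the subunit that turns the calcitonin-like receptor into a receptor for adrenomedullin. VWF, the clotting factor that endothelium stores for release, followed with 109 FPKM, and CLDN5 and ENG with 81.1 and 80.3 FPKM. PECAM1 had 70.3 FPKM. At the other end stood NOS3 with 1.46 FPKM, SELE with 1.202 FPKM and PROX1 with 1.05 FPKM. The least expressed members are thus the endothelial nitric oxide synthase, E-selectin and the lymphatic master regulator.

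**Figure D1:**
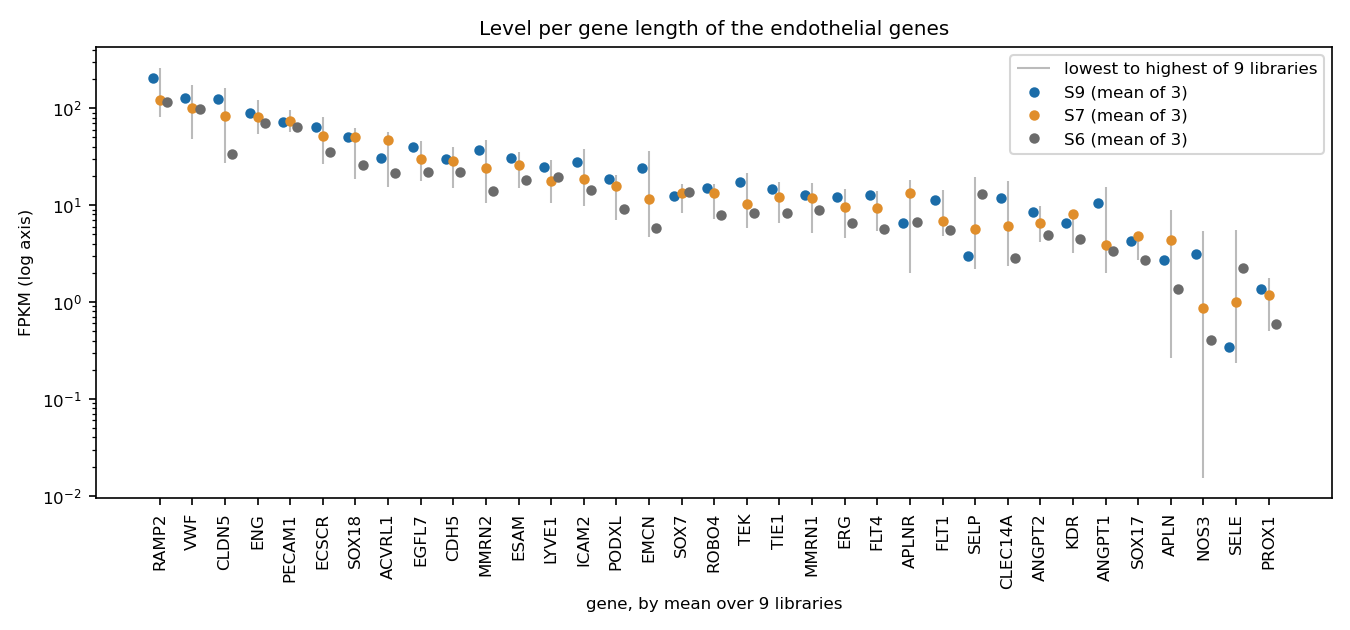
Level per gene length of the 35 endothelial genes on a log axis in FPKM, ordered by the mean over 9 libraries; points are means of the 3 libraries of S9 (blue), S7 (orange) and S6 (grey), and grey lines run from the lowest to the highest library. RAMP2 is highest with a mean of 148 FPKM and PROX1 lowest with 1.05 FPKM, and NOS3 spans the widest range between libraries.

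Most endothelial genes were higher in S9 than in S6. Of the 35, 31 had a log2 fold change above 0, where 49.3% of all genes tested did. Their median was 0.79, beside a median of -0.011 over all genes tested. By edgeR's quasi-likelihood test over 17102 genes, with an adjusted p below 0.05 as the threshold, 7 rose and 1 fell in S9 against S6. That is 22.9% of the members, where 12.4% of all genes tested passed (6.02% higher and 6.34% lower). EMCN, CLDN5, ROBO4, CLEC14A and PODXL among the 25 pan-endothelial genes rose, as did FLT4 and PROX1 among the 4 lymphatic ones, while SELP among the 5 activated and angiogenic genes fell. In 15 members (42.9%) every S9 library lay above every S6 library, against 18.6% of all genes tested, and in 2 members, SELE and SELP, every S9 library lay below, against 17% of all genes tested.

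These calls rested on few libraries. The number of members called in S9 against S6 was 0 without S9_1, without S9_2 or without S6_4, was 3 without S6_2 or without S7_4, was 2 without S6_3 and was 14 without S9_4. Over all genes, 0, 4 and 89 were called without S9_1, without S9_2 and without S6_4, against 2115 with all 9 libraries. Without S6_2 the count over all genes was 2056, without S9_4 1947, without S7_4 1197 and without S6_3 1025, so fewer members were called without S6_2, and more without S9_4, at nearly the same count over all genes. With all 9 libraries, CLDN5, ROBO4, SELP and FLT4 passed as well with both other filters on low counts, with DESeq2 size factors, in DESeq2 and limma, with a term for low mitochondrial counts and with a length correction. Of the other 4 called members, CLEC14A was lost in limma, PODXL with the length correction, and EMCN and PROX1 in more of these settings. SELP and FLT4 stayed past the threshold in each of the 6 omissions other than those of S9_1, S9_2 and S6_4. In the 6 libraries without the low mitochondrial counts, 0 members were called, with 7 of all genes called, while 23 of 35 members had an unadjusted p below 0.05, as did 25.2% of all genes tested. The median log2 fold change of the members was 0.91 there.

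**Figure D2:**
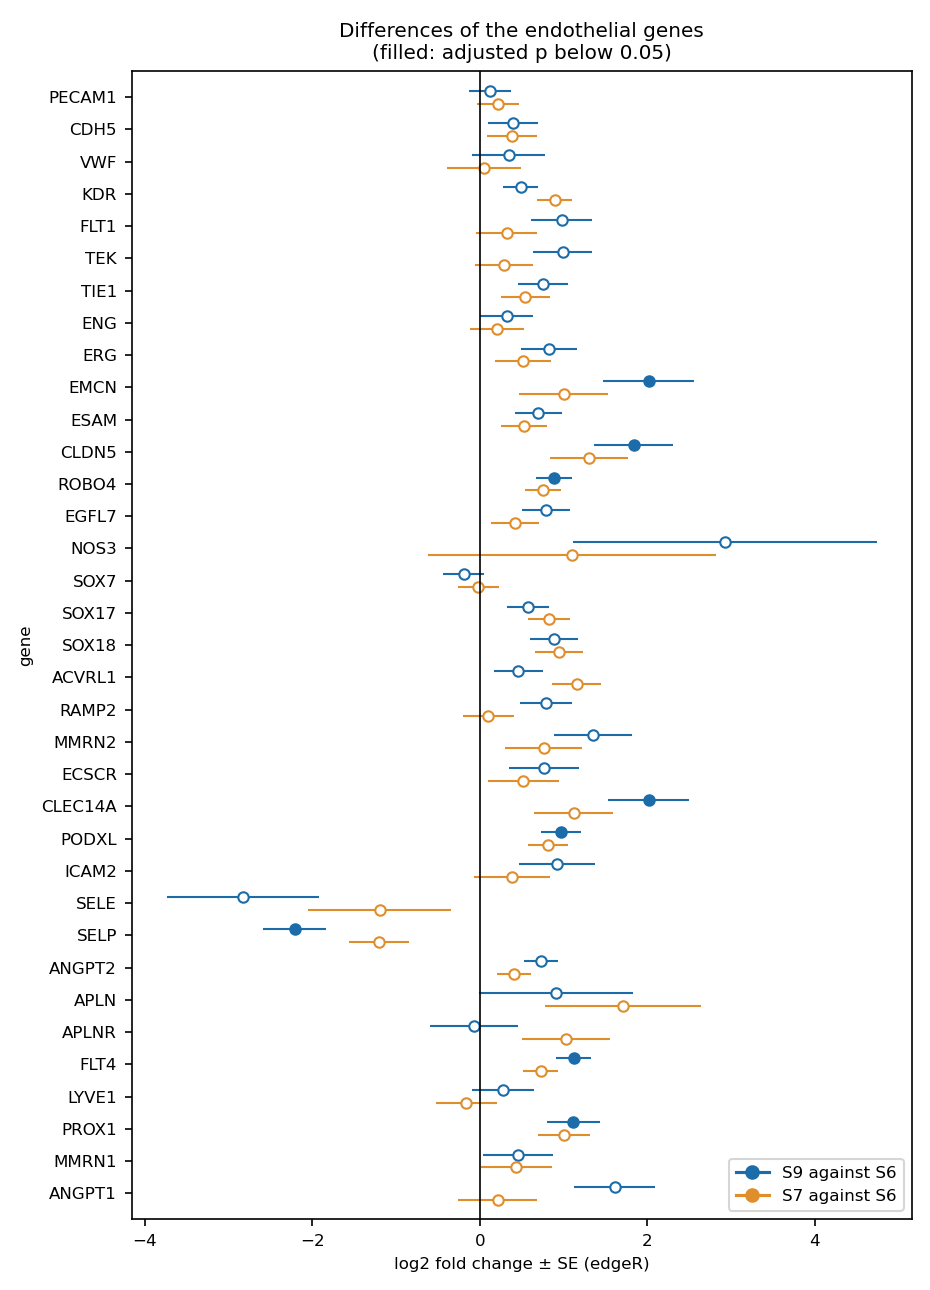
Log2 fold change ± SE of each of the 35 endothelial genes in S9 against S6 (blue) and in S7 against S6 (orange), from 1 edgeR fit of 9 libraries; filled points passed an adjusted p of 0.05. The filled points are EMCN, CLDN5, ROBO4, CLEC14A, PODXL, FLT4 and PROX1 to the right of 0 and SELP to the left, all for S9 against S6, and both comparisons share the S6 libraries.

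Among the genes of cell contacts and of the surface coat, CLDN5, EMCN and PODXL rose in S9 against S6, while PECAM1 and CDH5 did not pass the test. CLDN5 encodes claudin-5, the main claudin of endothelial tight junctions. It was at 226, 188 and 122 CPM in S9_1, S9_2 and S9_4, at 207, 51.3 and 113 CPM in S7_2, S7_3 and S7_4, and at 39.0, 66.6 and 44.8 CPM in S6_2, S6_3 and S6_4. All S9 libraries lay above all S6 libraries, and S7 spanned both ranges. CLDN5 rose 3.57-fold in S9 against S6 (1.84 on the log2 scale, SE 0.47; edgeR adjusted p = 0.0397), and in S7 against S6 its log2 fold change of 1.31 ± 0.46 did not pass (adjusted p = 0.201).

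PECAM1 (CD31), an adhesion molecule of endothelium that leukocytes and platelets also carry, was at 222, 311 and 182 CPM in S9, at 327, 204 and 233 CPM in S7 and at 198, 260 and 198 CPM in S6. The groups overlapped throughout, and the log2 fold change in S9 against S6 was 0.12 ± 0.25 (edgeR adjusted p = 0.779). CDH5, VE-cadherin of the adherens junction, had 128, 169 and 79.3 CPM in S9, 140, 119 and 112 CPM in S7 and 63.2, 108 and 113 CPM in S6. Here too the groups overlapped, with the lowest library in S6 and a log2 fold change of 0.40 ± 0.30 in S9 against S6 (adjusted p = 0.396). The remaining adhesion molecules did not pass: ESAM had a log2 fold change of 0.70 and ICAM2, which platelets and leukocytes also make, of 0.92 in S9 against S6 (adjusted p = 0.123 and 0.207).

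EMCN and PODXL encode sialomucins of the endothelial surface coat, and PODXL is also made by some epithelia. EMCN was at 205, 161 and 54.6 CPM in S9, at 108, 31.7 and 68.6 CPM in S7 and at 32.3, 44.8 and 26.8 CPM in S6. The spread within S9 was wide, with S9_4 close to the highest S6 library, but S9 and S6 did not overlap, and S7 overlapped both. EMCN rose 4.04-fold in S9 against S6 (log2 fold change 2.02, SE 0.54, by edgeR adjusted p = 0.0447). This call was lost with no filter on low counts and with the length correction (adjusted p = 0.0586 each), and in limma on log2(FPKM + 1) and log2(FPKM + 0.1) (0.0661 and 0.0611).

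PODXL had 104, 102 and 78.7 CPM in S9, 110, 63.0 and 83.5 CPM in S7 and 37.1, 49.6 and 58.7 CPM in S6. S9 and S7 each lay wholly above S6. The rise in S9 against S6 was 1.96-fold (log2 fold change 0.97, SE 0.24, by edgeR adjusted p = 0.0366).

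CLEC14A, a C-type lectin of sprouting vessels, binds MMRN2 (multimerin 2) in the vessel wall. CLEC14A was at 96.7, 75.9 and 24.1 CPM in S9, at 49.6, 21.6 and 34.3 CPM in S7 and at 18.3, 14.1 and 16.2 CPM in S6, so that every S9 and every S7 library exceeded every S6 library. It rose 4.05-fold in S9 against S6 (log2 fold change 2.02, SE 0.48, by edgeR adjusted p = 0.0335). MMRN2 had 158, 170 and 66.3 CPM in S9, 141, 40.6 and 81.9 CPM in S7 and 42.5, 55.2 and 57.2 CPM in S6. Its S9 libraries also lay above those of S6, but the log2 fold change of 1.35 ± 0.46 did not pass (adjusted p = 0.0861). MMRN2 was called higher in S9 against S6 by DESeq2, without S7_3 and without S9_4.

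VWF varied more between libraries than between groups. It was at 1225, 1529 and 571 CPM in S9, at 1412, 456 and 842 CPM in S7 and at 905, 938 and 776 CPM in S6. The lowest library of S9 and of S7 was the one with few mitochondrial counts. The log2 fold change in S9 against S6 was 0.34 ± 0.44 (edgeR adjusted p = 0.637).

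**Figure D3:**
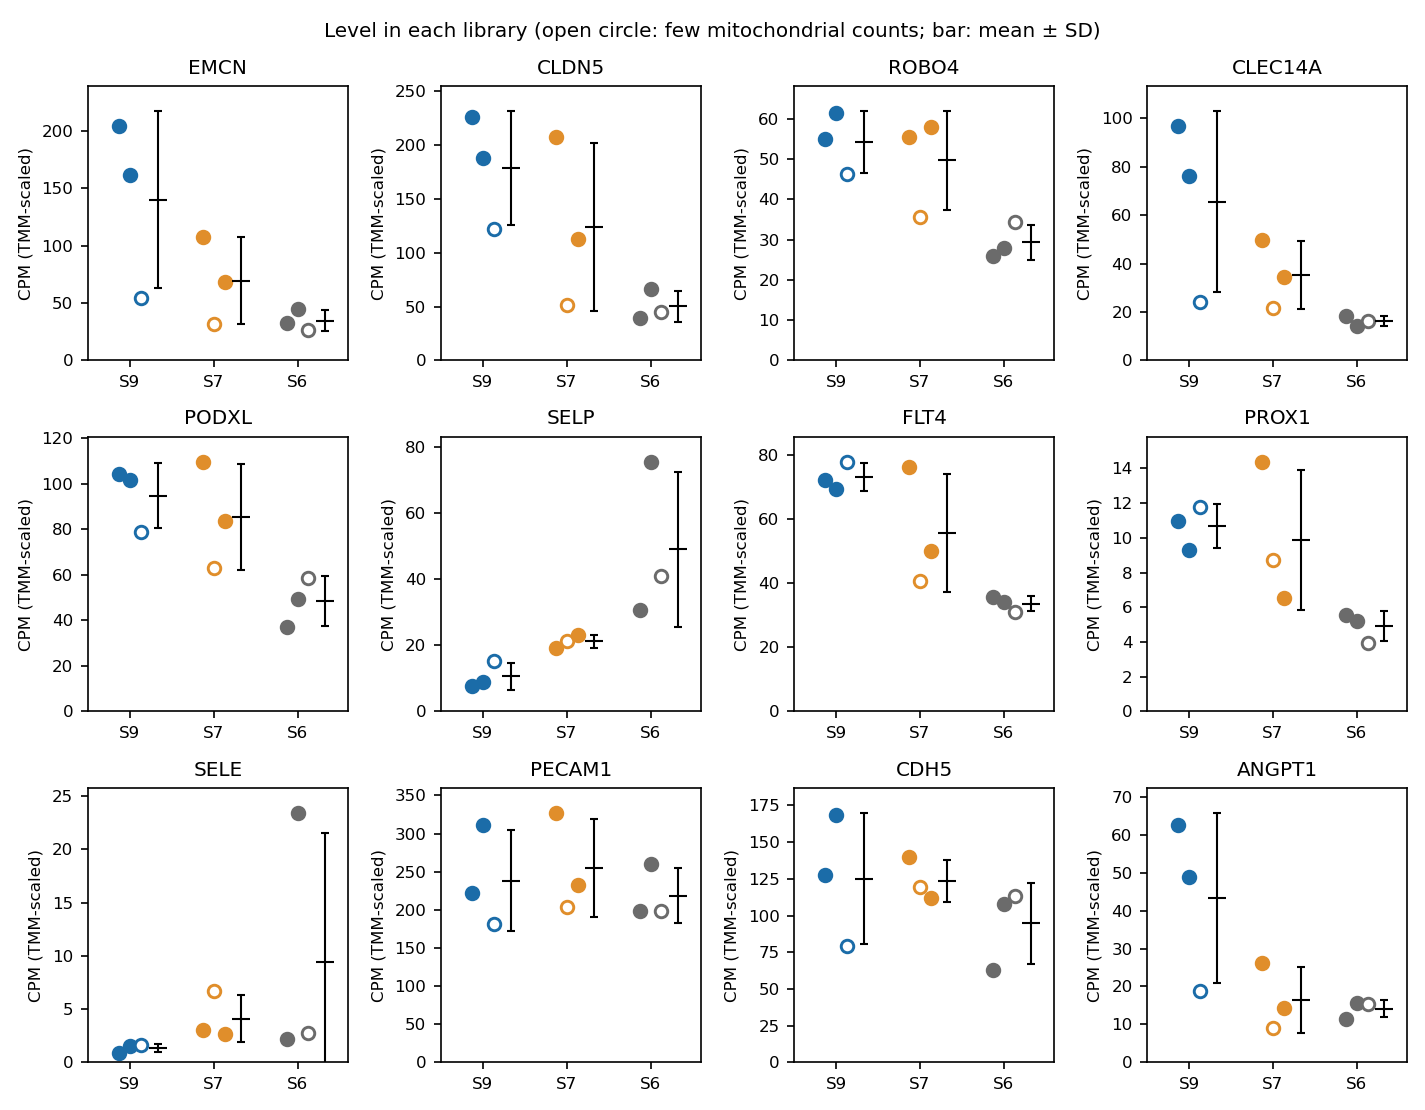
TMM-scaled CPM of 12 endothelial genes in each library of S9, S7 and S6 (left to right); open circles are S9_4, S7_3 and S6_4, the libraries with few mitochondrial counts, and bars are mean ± SD of the 3 libraries. In the first 8 panels, the genes called in S9 against S6, the S9 circles lie wholly above those of S6, except for SELP, where they lie wholly below, and PECAM1 and CDH5 overlap in all groups.

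The receptors differed in their pattern over the groups. ROBO4, a guidance receptor that stabilises vessels, was at 55.1, 61.4 and 46.2 CPM in S9, at 55.6, 35.6 and 57.9 CPM in S7 and at 25.9, 28.0 and 34.3 CPM in S6. S9 and S7 both lay above S6, S7_3 only just so. ROBO4 rose 1.85-fold in S9 against S6 (log2 fold change 0.88, SE 0.21, by edgeR adjusted p = 0.0342) and had a log2 fold change of 0.76 ± 0.21 in S7 against S6 that did not pass (adjusted p = 0.141).

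TEK, the angiopoietin receptor TIE2, had 98.1, 96.0 and 45.1 CPM in S9, 66.3, 29.6 and 50.9 CPM in S7 and 34.2, 41.4 and 44.7 CPM in S6. S9_1 and S9_2 were the highest libraries, while S9_4 was only just above S6_4 (log2 fold change 0.99 ± 0.35 in S9 against S6, edgeR adjusted p = 0.0923). DESeq2 and the fit without S9_4 called TEK higher in that comparison. TIE1, its co-receptor, was at 74.7, 75.9 and 40.0 CPM in S9, at 63.8, 38.4 and 62.2 CPM in S7 and at 29.1, 39.1 and 44.4 CPM in S6. FLT1, the decoy receptor VEGFR-1, was at 102, 109 and 37.3 CPM in S9, at 57.5, 38.8 and 60.8 CPM in S7 and at 42.5, 47.6 and 35.8 CPM in S6. In TIE1 and FLT1 the library S9_4 lay within the S6 range, and neither passed in S9 against S6 (adjusted p = 0.119 and 0.106). Without S9_4 both were called.

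KDR, the main signalling receptor VEGFR-2, differed from these in being highest in S7. It had 39.8, 36.1 and 43.0 CPM in S9, 44.6, 58.1 and 55.2 CPM in S7 and 19.8, 32.0 and 33.1 CPM in S6. The 3 groups did not overlap, with S7 above S9 and S9 above S6. None of the differences passed: the log2 fold change was 0.49 ± 0.21 in S9 against S6 (edgeR adjusted p = 0.147), 0.90 ± 0.21 in S7 against S6 (adjusted p = 0.109) and -0.41 ± 0.21 in S9 against S7 (adjusted p = 0.565).

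ACVRL1 (ALK1), the receptor for BMP9 and BMP10, showed the same order. It was at 145, 129 and 78.1 CPM in S9, at 227, 167 and 177 CPM in S7 and at 59.5, 116 and 80.9 CPM in S6, with S7 wholly above both S9 and S6. Its log2 fold change of 1.16 ± 0.29 in S7 against S6 did not pass (edgeR adjusted p = 0.125). ENG, the co-receptor endoglin, which stromal cells and macrophages also carry, had 208, 290 and 130 CPM in S9, 240, 137 and 204 CPM in S7 and 207, 165 and 130 CPM in S6, and its groups overlapped throughout. RAMP2 was at 206, 181 and 104 CPM in S9, at 131, 76.6 and 96.5 CPM in S7 and at 65.6, 111 and 107 CPM in S6. S9_1 and S9_2 were its highest libraries and S9_4 lay among those of S6 (log2 fold change 0.80 ± 0.31 in S9 against S6, adjusted p = 0.119).

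ERG, SOX7, SOX17 and SOX18 did not pass edgeR's test in any comparison with the settings used throughout, while SOX18 was called higher in S9 against S6 by DESeq2, with the length correction and without S9_4. ERG, which maintains endothelial identity, had a log2 fold change of 0.82 ± 0.33 in S9 against S6 (edgeR adjusted p = 0.130). SOX17 and SOX18, which act in arterial and lymphatic specification, had 0.58 ± 0.25 and 0.89 ± 0.28 (adjusted p = 0.156 and 0.0714), and every S9 library and every S7 library lay above S6 for both. SOX7, of the same family, ran the other way with -0.19 ± 0.25 (adjusted p = 0.639), and was the only pan-endothelial gene with a value below 0 in that comparison. EGFL7, a secreted matrix protein of endothelium, had 0.79 ± 0.29 (adjusted p = 0.1002), and ECSCR, a chemotaxis receptor, 0.77 ± 0.42 (adjusted p = 0.249).

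NOS3, the endothelial nitric oxide synthase, switched between near absence and clear expression from library to library. Its counts were 564, 1075 and 186 in S9, 495, 3 and 12 in S7_2, S7_3 and S7_4, and 11, 4 and 225 in S6_2, S6_3 and S6_4. The 3 S9 libraries all had over 100 counts, as did only 1 library in S7 and 1 in S6. The log2 fold change of 2.93 in S9 against S6 had an SE of 1.81 (edgeR adjusted p = 0.305). Its range between libraries was 336-fold in CPM, and the next widest among the members was 36.1-fold for APLN.

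**Figure D4:**
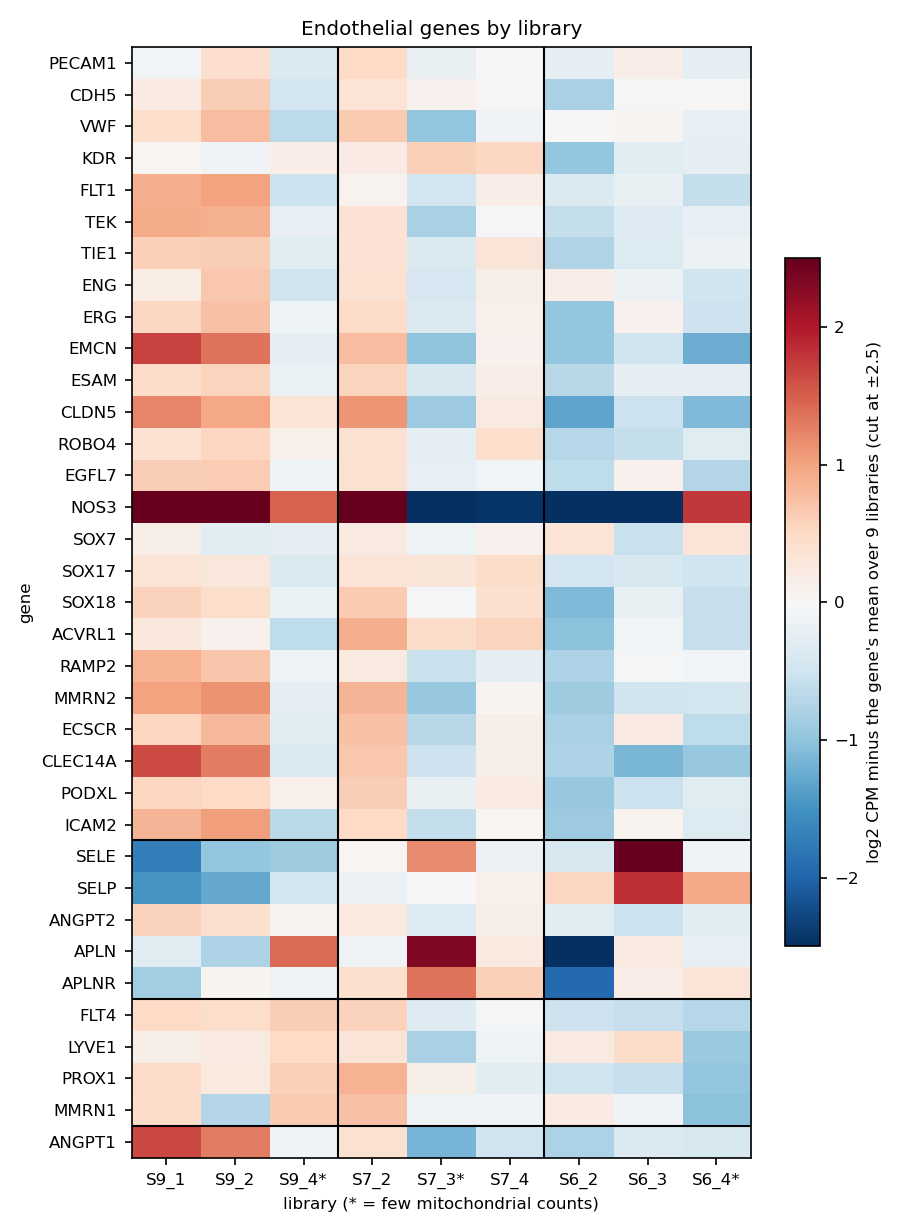
Log2 CPM of 35 endothelial genes (rows) in 9 libraries (columns; S9, S7 and S6 from left to right, an asterisk marking few mitochondrial counts), with the mean of each gene over the 9 libraries set to 0 and colours cut at ±2.5; horizontal lines part pan-endothelial, activated and angiogenic, and lymphatic genes and ANGPT1. Most pan-endothelial rows are red in S9_1, S9_2, S7_2 and S7_4, and blue in S9_4, S7_3, S6_2, S6_3 and S6_4. SELP is blue in S9 and red in S6, SELE is blue in S9 and red mainly in S6_3 and S7_3, and NOS3 switches between libraries.

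The library with few mitochondrial counts was the lowest of its group in most pan-endothelial genes in S9 and S7. S9_4 was the lowest S9 library in 23 of the 25 genes (all but KDR and SOX7), with a median ratio of 0.540 to the mean of S9_1 and S9_2. S7_3 was the lowest S7 library in 23 of 25 (all but CDH5 and KDR), with a median ratio of 0.623. S6_4 was the lowest S6 library in only 7 of 25, with a median ratio of 0.993. The lymphatic genes gave another order in S9 and S6: S9_4 was the highest S9 library in 4 of 4 (median ratio 1.203), S7_3 was the lowest S7 library in 3 of 4 (0.674) and S6_4 was the lowest S6 library in 4 of 4 (0.602). Without VWF, the summed CPM of the pan-endothelial genes was 1407 to 2663 in S9, 1369 to 2437 in S7 and 1114 to 1482 in S6, and the highest S6 library exceeded the lowest S9 and the lowest S7 library.

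The selectins were lowest in S9. SELP encodes P-selectin, which endothelium and platelets store and bring to the surface on activation. It was at 7.67, 8.82 and 15.3 CPM in S9, at 19.2, 21.4 and 23.2 CPM in S7 and at 30.8, 75.5 and 41.0 CPM in S6, and none of the 3 groups overlapped. SELP fell by 2.21 on the log2 scale in S9 against S6 (SE 0.37, edgeR adjusted p = 0.0190), to 0.216 of the S6 level. The log2 fold changes of -1.21 ± 0.36 in S7 against S6 and -1.004 ± 0.36 in S9 against S7 did not pass (adjusted p = 0.150 and 0.538).

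SELE, E-selectin, which endothelium makes anew under cytokines, was at 0.900, 1.51 and 1.59 CPM in S9, at 3.03, 6.66 and 2.67 CPM in S7 and at 2.22, 23.4 and 2.73 CPM in S6. S9 lay below both other groups, and the S6 mean was carried by S6_3. The log2 fold change of -2.82 ± 0.91 in S9 against S6 did not pass (edgeR adjusted p = 0.0726), and it was -0.88 without S6_3. Without S6_2, where S6_3 weighs more in the S6 mean, SELE was called lower. The part of leukocytes and platelets in the selectin levels was not tested, and sums of their markers are given here. Beside the neutrophil sums above, 8 macrophage markers summed to 267 to 477 CPM in S9, 329 to 492 CPM in S7 and 628 to 1539 CPM in S6. Of 7 platelet and megakaryocyte markers, the 6 matched summed to 29.5 to 39.3 CPM in S9, 32.7 to 46.2 CPM in S7 and 21.8 to 34.99 CPM in S6. Of these, GP1BA had no count in any library and PPBP had none in S9. GP9 had none in S9 or S7 and at most 0.165 CPM in S6. PPBP, a chemokine of platelet granules, passed as lower in S9 than in S6, where it was at 0.325, 5.03 and 1.23 CPM (edgeR adjusted p = 0.0417), while most of the sum was ITGB3 and ITGA2B, with 22.9 and 10.3 CPM on average in S9 and 12.2 and 13.4 CPM in S6.

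ANGPT2, ANGPT1, APLN and APLNR did not pass edgeR's test with the settings used throughout. DESeq2 called ANGPT2 and ANGPT1 higher in S9 against S6, and ANGPT2 was also called with a term for low mitochondrial counts, with a minimum of 1 CPM, with the length correction, and without S7_3 or without S9_4. ANGPT1 was called without S7_2, without S7_3 or without S9_4. ANGPT2, which opposes ANGPT1 at TEK during remodelling, was at 29.1, 25.7 and 20.8 CPM in S9, at 23.2, 15.4 and 21.8 CPM in S7 and at 16.01, 13.5 and 16.004 CPM in S6. S9 lay wholly above S6, and the log2 fold change of 0.73 ± 0.21 missed the threshold narrowly (edgeR adjusted p = 0.0502). ANGPT1, which stabilises vessels through TEK, had 62.5, 48.7 and 18.8 CPM in S9, 26.1, 8.94 and 14.2 CPM in S7 and 11.5, 15.7 and 15.3 CPM in S6. S9_1 and S9_2 stood far above all others, and the log2 fold change of 1.61 ± 0.48 in S9 against S6 did not pass (adjusted p = 0.0592). Per gene length, ANGPT1 exceeded ANGPT2 in S9_1 and S9_2, with ratios of 1.57 and 1.38, but not in S9_4, at 0.659. The ratio was 0.422 to 0.817 in S7 and 0.524 to 0.844 in S6.

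APLN, the ligand apelin of sprouting and hypoxic endothelium, was at 3.78, 2.77 and 12.6 CPM in S9, at 4.42, 23.5 and 5.58 CPM in S7 and at 0.650, 5.48 and 4.07 CPM in S6. Its highest libraries were S7_3 and S9_4, each with few mitochondrial counts, and the groups overlapped. APLNR, its receptor, was at 15.1, 29.0 and 25.3 CPM in S9, at 36.5, 70.4 and 41.9 CPM in S7 and at 7.21, 31.1 and 34.6 CPM in S6. S7 lay above both other groups, again with S7_3 highest. The log2 fold change of APLNR was -0.07 ± 0.53 in S9 against S6 and 1.03 ± 0.53 in S7 against S6 (edgeR adjusted p = 0.946 and 0.363).

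Of the lymphatic genes, the receptor and the transcription factor rose in S9, and the other 2 did not pass. FLT4 (VEGFR-3), found on lymphatic and on some sprouting or fenestrated blood endothelium, was at 72.1, 69.3 and 77.7 CPM in S9, at 76.1, 40.7 and 50.0 CPM in S7 and at 35.7, 34.1 and 31.0 CPM in S6. The S9 libraries lay close together and, like those of S7, above all of S6. FLT4 rose 2.17-fold in S9 against S6 (log2 fold change 1.12, SE 0.21, by edgeR adjusted p = 0.0227), and its log2 fold change of 0.73 ± 0.21 in S7 against S6 did not pass (adjusted p = 0.148).

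PROX1 had 10.96, 9.31 and 11.8 CPM in S9, 14.4, 8.74 and 6.54 CPM in S7 and 5.55, 5.24 and 3.97 CPM in S6, with S9 and S7 both wholly above S6. It rose 2.17-fold in S9 against S6 (log2 fold change 1.12 ± 0.31) with an edgeR adjusted p of 0.0497, close to the threshold. LYVE1, the hyaluronan receptor of lymphatic vessels that some macrophages also carry, was at 56.8, 60.3 and 72.7 CPM in S9, at 63.9, 29.4 and 47.0 CPM in S7 and at 59.9, 70.1 and 26.8 CPM in S6. Its groups overlapped, with a log2 fold change of 0.28 ± 0.37 in S9 against S6 (adjusted p = 0.653). MMRN1, a protein of lymphatic endothelium and platelets, likewise overlapped (0.46 ± 0.42, adjusted p = 0.504).

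In the 6 libraries without the low mitochondrial counts, the direction of the 8 called genes in S9 against S6 was as with all 9, though none passed in edgeR. The log2 fold changes were 2.24 for EMCN (adjusted p = 0.0584), 1.97 for CLDN5 (0.0675), 1.11 for ROBO4 (0.0585), 2.41 for CLEC14A (0.0584) and 1.25 for PODXL (0.0653). SELP had -2.69 (adjusted p = 0.0612), FLT4 1.02 (0.0820) and PROX1 0.91 (0.249). With a term for the low mitochondrial libraries in the fit of all 9, 8 members were called, with ANGPT2 in and PROX1 out.

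In S7 against S6, 0 of 35 members passed edgeR's test, where 0.111% of all genes tested did (0.0468% higher and 0.0643% lower). Unadjusted p was below 0.05 in 11 members, 10 of them higher in S7, a direction and p that 8.68% of all genes tested had. In limma on the FPKM values 0 members were called as well. DESeq2 called 9: KDR, ROBO4, SOX17, SOX18, ACVRL1, PODXL, FLT4 and PROX1 higher, and SELP lower. The median log2 fold change of the members was 0.52, beside -0.0097 over all genes tested, and 31 lay above 0, where 48.9% of all genes tested did. In 10 members (28.6%) every S7 library lay above every S6 library, against 10.7% of all genes tested. In 1, SELP, every S7 library lay below, against 10.4% of all genes tested, and in either direction 21.2% of all genes tested did not overlap.

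In S9 against S7, 0 of 35 members passed, as did 0% of all genes tested in edgeR. Here 3 members had an unadjusted p below 0.05, where 9.21% of all genes tested did: ACVRL1 and SELP lower and ANGPT1 higher in S9, and DESeq2 called 0 members. The median log2 fold change was 0.21, with 25 of 35 above 0, where 50.1% of all genes tested lay. No member had all S9 libraries above all S7 libraries, where 8.36% of genes tested did, and 5 had them all below (KDR, ACVRL1, SELE, SELP and APLNR), where 8.81% of genes tested did. The order of group means was S9, then S7, then S6 in 24 members, 19 of them pan-endothelial. S7 was the highest in PECAM1, KDR, SOX17, SOX18, ACVRL1, APLN and APLNR. S6 was the highest in SELE, SELP and SOX7. The 3 comparisons share libraries, so these counts are not independent of each other.

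Setting each gene against CDH5 of the same library, per gene length, describes how the endothelial genes moved among themselves. Of 34 such ratios, 9 did not overlap and were higher in S9 than in S6: TEK, EMCN, CLDN5, NOS3, RAMP2, MMRN2, CLEC14A, PODXL and ANGPT1. For TEK and RAMP2 the lowest S9 ratio lay only just above the highest S6 ratio (0.507 against 0.483 and 5.61 against 5.42). The same held for CLEC14A (0.226 against 0.216) and PODXL (0.484 against 0.471). SELE and SELP were lower in S9 than in S6. Of 17101 other genes tested, 4.2% had ratios to CDH5 that were wholly higher in S9 than in S6 and 12.4% wholly lower. ROBO4, FLT4 and PROX1, which rose in CPM, overlapped between S9 and S6 relative to CDH5. CLDN5 stood at 5.15, 3.24 and 4.46 times CDH5 in S9, at 4.30, 1.25 and 2.93 times in S7 and at 1.79, 1.79 and 1.15 times in S6. SELP stood at 0.0695, 0.0604 and 0.223 of CDH5 in S9, at 0.159, 0.207 and 0.239 in S7 and at 0.562, 0.806 and 0.418 in S6. SELP was thus lower and CLDN5 higher in S9 than in S6 relative to CDH5 too.

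Ratios were also taken between receptors and against CDH5 for ACVRL1. FLT4 to KDR was 1.95, 2.07 and 1.95 in S9, 1.84, 0.755 and 0.975 in S7 and 1.94, 1.15 and 1.01 in S6, so that S9 lay just above the highest S6 library. ACVRL1 to CDH5 was 1.22, 0.824 and 1.06 in S9, 1.75, 1.505 and 1.70 in S7 and 1.01, 1.15 and 0.768 in S6, with S7 above both. An exact permutation test of 3 libraries against 3 cannot give a two-sided p below 0.1, so no test was made of the ratios.

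**Figure D5:**
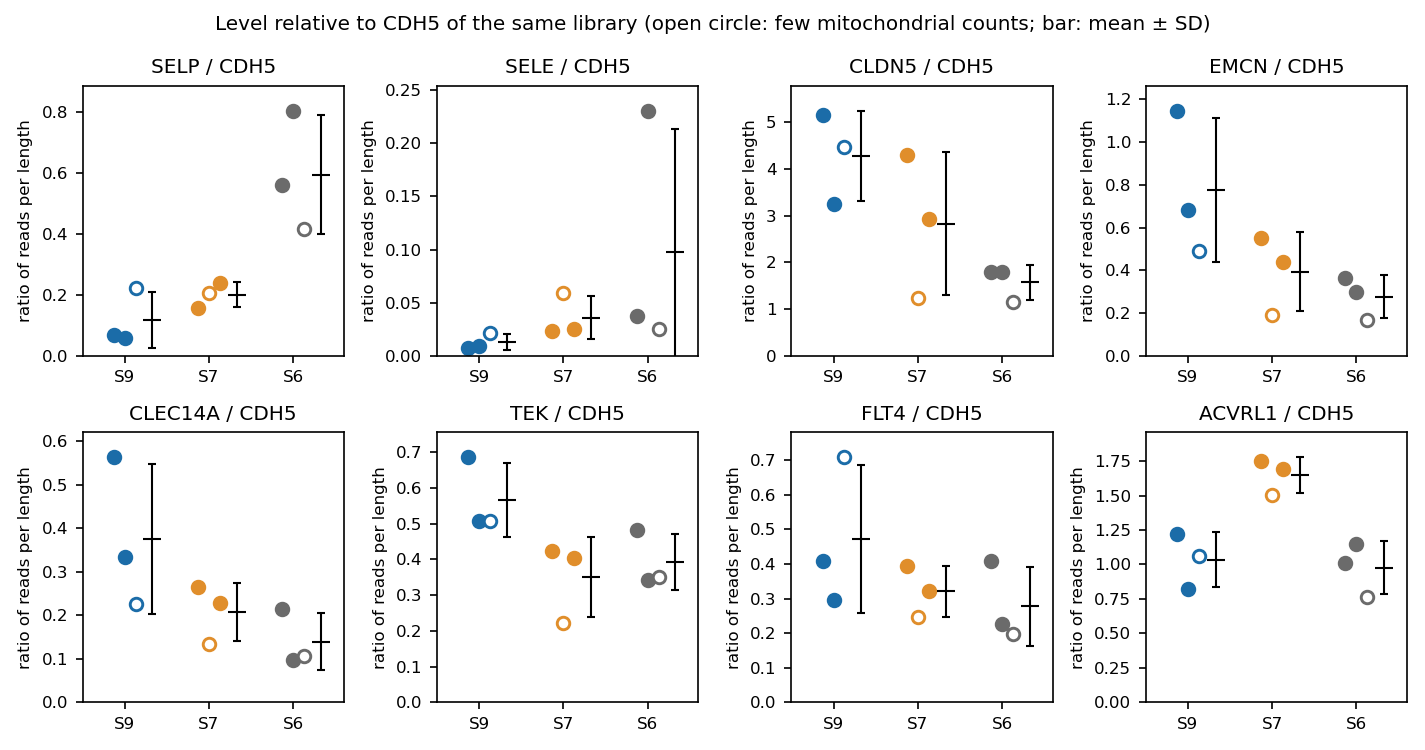
Ratio of 8 endothelial genes to CDH5 of the same library, in reads per gene length, for S9, S7 and S6 (left to right); open circles are libraries with few mitochondrial counts and bars are mean ± SD of 3 libraries. SELP lies at 0.0604 to 0.223 in S9 and at 0.418 to 0.806 in S6, while ACVRL1 is highest in S7.

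Further endothelial genes, taken by name, were read in the same comparison. Of 22 further pan-endothelial genes tested, 3 rose and 1 fell in S9 against S6, with a median log2 fold change of 0.68. That is 18.2% of them called, against 12.4% of all genes tested, and 13.6% higher, against 6.02%. PTPRB, the phosphatase that restrains TEK, rose to 92.2 ± 17.8 CPM in S9, against 46.5 ± 6.70 CPM in S6 (SD, n = 3 each; edgeR adjusted p = 0.0261). RASIP1, needed for vessel lumens, and ARHGEF15 rose 1.63-fold and 2.71-fold (adjusted p = 0.0360 and 0.0392). LMO2, which blood cells also express, fell by 0.53 on the log2 scale (adjusted p = 0.0486).

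Genes of vessel subtypes were counted in the same way, beside 6.02% of all genes tested that rose and 6.34% that fell in S9 against S6. Of 10 arterial genes, 1 rose in S9 against S6: DLL4, the Notch ligand of arteries and tip cells, at 23.9, 21.4 and 16.1 CPM in S9, 21.6, 17.3 and 17.7 CPM in S7 and 9.67, 10.1 and 11.3 CPM in S6 (edgeR adjusted p = 0.0235). Of these 10, 5 had a log2 fold change below 0, and their median was -0.031. Of 4 venous genes, 2 rose: NR2F2 (COUP-TFII), the vein-fate factor that stroma also expresses, 2.29-fold, and EPHB4 1.84-fold (adjusted p = 0.0280 and 0.0308). NRP2 and ACKR1 of that list did not pass, with log2 fold changes of 0.75 ± 0.34 and -0.18 ± 0.47 (edgeR adjusted p = 0.170 and 0.835). Of 8 capillary genes, 6 had a log2 fold change below 0. BTNL9 and CD300LG lay above 0 without passing (0.46 ± 0.82 and 0.77 ± 0.65, edgeR adjusted p = 0.744 and 0.458). Of the 8, 0 rose and 3 fell. Those called were CD36, RGCC and CA4, while AQP1, the water channel, which red cells also carry, had 988 ± 214 CPM in S9 and 1035 ± 104 CPM in S6 (SD, n = 3 each; adjusted p = 0.894).

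CD36, a fatty acid carrier also found in macrophages and fat cells, was at 1.38, 1.62 and 1.64 CPM in S9, at 4.15, 9.67 and 6.37 CPM in S7 and at 3.77, 12.3 and 11.96 CPM in S6 (edgeR adjusted p = 0.0227 in S9 against S6). RGCC had 4.67 ± 1.53 CPM in S9 and 14.0 ± 3.58 CPM in S6 (SD, n = 3 each; adjusted p = 0.0294). CA4 was at 0, 0.192 and 0 CPM in S9, at 0.0273, 0 and 0.191 CPM in S7 and at 1.95, 4.54 and 2.63 CPM in S6 (adjusted p = 0.0415 in S9 against S6). CA4 had no read in 3 of the 6 libraries of S9 and S7, and reads in all 3 of S6.

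Of 9 further lymphatic genes tested, 3 rose and 0 fell in S9 against S6, where 6.02% of all genes tested rose. PDPN, podoplanin, which lymphatic endothelium shares with fibroblasts and some epithelia, ran the other way without passing, at 32.9, 27.9 and 46.9 CPM in S9, 32.7, 62.8 and 47.1 CPM in S7 and 61.4, 68.4 and 51.9 CPM in S6 (edgeR adjusted p = 0.0944 in S9 against S6). Its S9 libraries all lay below those of S6. RELN, secreted by collecting lymphatics, rose 2.23-fold (edgeR adjusted p = 0.0477). GATA2, a factor of lymphatic valves that mast cells also express, rose 3.02-fold (adjusted p = 0.0423). VEGFD, a ligand of FLT4 and the only one of 5 VEGF family ligands to pass, was at 10.7, 10.8 and 7.39 CPM in S9, at 6.74, 4.59 and 4.44 CPM in S7 and at 4.31, 2.69 and 3.40 CPM in S6 (log2 fold change 1.47 ± 0.31, adjusted p = 0.0252). VEGFC had a log2 fold change of 0.48 ± 0.16 and VEGFA of -0.18 ± 0.29 in S9 against S6 (adjusted p = 0.0796 and 0.712). CCL21, the chemokine of lymphatic capillaries, had 0.04 ± 0.29 (adjusted p = 0.949).

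Of the other adhesion genes of activated endothelium, ICAM1 fell. ICAM1, which many cell types make under cytokines, was at 47.3, 56.1 and 49.5 CPM in S9, at 61.7, 50.0 and 74.8 CPM in S7 and at 152, 143 and 116 CPM in S6, with S9 and S7 both below S6. It was the only one of 4 tested to pass, and fell by 1.43 on the log2 scale in S9 against S6 (SE 0.18, edgeR adjusted p = 0.0127). Of all genes tested, 6.34% fell and 6.02% rose in that comparison. VCAM1 had 8.81, 14.2 and 12.4 CPM in S9, 13.3, 10.7 and 9.70 CPM in S7 and 36.9, 37.7 and 13.2 CPM in S6, where S6_4 lay among the other groups (adjusted p = 0.0548). Of 5 tip cell genes, CXCR4, which leukocytes also carry, fell by 2.26 on the log2 scale (adjusted p = 0.0261), and 0 rose, beside the same shares of all genes tested. PGF and NID2 of that list, placental growth factor and a basement membrane nidogen, had S9 wholly above S6 without passing (log2 fold change 1.30 and 0.73, adjusted p = 0.0532 and 0.0544).

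Among genes of the cells that wrap vessels, part also rose. Of 10 mural cell genes, 4 rose and 0 fell in S9 against S6, where 6.02% of all genes tested rose and 6.34% fell. NOTCH3, the Notch receptor of pericytes and vascular smooth muscle, was at 378, 354 and 337 CPM in S9, at 298, 263 and 280 CPM in S7 and at 174, 107 and 166 CPM in S6, and the 3 groups did not overlap (log2 fold change 1.26 ± 0.19, edgeR adjusted p = 0.0164). RGS5, CSPG4 and MCAM rose 2.95-fold, 3.15-fold and 2.56-fold (adjusted p = 0.0387, 0.0227 and 0.0442). HIGD1B and NDUFA4L2, markers of pericytes, had every S9 library below every S6 library without passing: HIGD1B was at 1.16, 2.08 and 3.26 CPM in S9 and at 3.98, 6.30 and 4.21 CPM in S6, and NDUFA4L2 at 1.43, 2.90 and 3.68 CPM in S9 and at 4.98, 23.1 and 3.91 CPM in S6 (adjusted p = 0.105 and 0.168). All 5 smooth muscle markers rose in that comparison as well, by 1.51 to 2.35 on the log2 scale, and the urethral wall holds smooth muscle outside vessels. None of these further lists had a member that passed in edgeR in S7 against S6 or in S9 against S7.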

How the data were processed

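The deposited table holds whole-number read counts per gene, not normalized, made by the authors with fastp, HISAT2 and HTSeq per the submitters' processing notes; for versions, genome build and strand setting the sources used here say nothing. The deposited FPKM values hold the same reads, since 172953 of 172961 values above 0 gave a whole gene length (relative tolerance 1e-06). Reads of overlapping genes cannot be told apart.

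Genes were kept by filterByExpr (minimum count 10, minimum total 15), leaving 17102. After TMM scaling, 1 robust quasi-likelihood fit of 9 libraries was made with edgeR 4.0.16 in R 4.3.3, with Benjamini-Hochberg adjustment over all genes tested and a threshold of 0.05. SE is the log2 fold change over the square root of F. Alternatives used DESeq2 1.42.0 and limma 3.58.1, other scalings and filters, a length correction, a term for low mitochondrial counts and left-out libraries; the fit of 6 libraries was chosen after seeing the data. Symbols for 515 of 12867 rows with a LOC number came from RefSeq (mOryCun1.1), and no coordinates or sequences were used.

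Members and gene lists were chosen with earlier results of these data known, and no test was run over a list. Values in every library are given for each member called, for members fixed by name (PECAM1, CDH5, VWF, the receptors, the selectins and the angiogenic genes among them), and for those with the highest and lowest FPKM. Other lists are given by their called members and up to 3 with the smallest p. Named after their values were seen were CCL21, VEGFA, VEGFC, PDPN, HIGD1B, NDUFA4L2, PGF, NID2, AQP1, NRP2, ACKR1, BTNL9, CD300LG, PPBP, ITGB3 and ITGA2B.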

Additional observations from a re-analysis of the deposited data

How the results depend on the processing

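With alternatives changed 1 at a time, the 35 log2 fold changes in 3 comparisons gave 1995 values, of which 71 turned their direction. These 71 belong to 27 results, none past the threshold with all 9 libraries, and each reversed value had an adjusted p of at least 0.508. Scaling by DESeq2 size factors, the filters, the term for low mitochondrial counts and the length correction left the members called in S9 against S6 within 1.5 times of 8. DESeq2 called 13, limma on log2(FPKM + 1) and log2(FPKM + 0.1) 5 each, the 6 libraries 0, and left-out libraries 0 to 14. In S7 against S6 DESeq2 called 9 members.

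Over all genes, 2115 were called in S9 against S6, with 3958 by DESeq2, 7 in the 6 libraries and 0 to 2076 with 1 library left out. In S7 against S6, 19 were called, with 1358 by DESeq2, 52 and 37 by limma with a pseudocount of 1 and 0.1, 4 with the mitochondrial term, 0 in the 6 libraries and 0 to 10 with 1 library left out. In S9 against S7, 0 were called (1575 at an unadjusted p below 0.05), with 130 by DESeq2, 1 in the 6 libraries and 0 to 1 with 1 library left out. The cause was not tested.

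The number in a library's title was used as a replicate block. Same-numbered libraries of S7 and S6 correlated in their deviations at 0.178, 0.165 and 0.0242. S9_2 correlated with S6_2 at -0.0951 and with S7_2 at 0.0875, and S9_4 with S6_4 at 0.224 and with S7_4 at 0.0452. In 8 of 14 cases a library correlated best with its own number. With such mixed values the numbers are not shown to pair libraries. The replicate block called 0 members (9 at an unadjusted p below 0.05) and 16 genes in S9 against S6, and 1 gene in S7 against S6. It turned the log2 fold change of VWF to -0.088 and of APLNR to 0.66 in S9 against S6, of VWF to -0.11, NOS3 to -0.59 and SOX7 to 0.030 in S7 against S6, and of TIE1 to -0.017, ENG to -0.071, APLN to 0.039 and MMRN1 to -0.052 in S9 against S7.

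In S9 against S6, APLNR turned to 0.15 and 0.22 with limma (pseudocount 1 and 0.1) and to 0.20 in the 6 libraries, where LYVE1 turned to -0.15 and MMRN1 to -0.082. In S7 against S6, VWF turned to -0.11 with limma at either pseudocount, to -0.086 with the mitochondrial term and to -0.074 with the length correction. SOX7 turned to 0.0096 and 0.015 with limma, to 0.032 with the length correction and to 0.21 in the 6 libraries. In S9 against S7, CDH5 turned to -0.0014 with the mitochondrial term and to -0.016 with the length correction. SOX18 turned to 0.0048 and 0.0049 with limma and to 0.068 with the length correction, which gave -0.035 for PROX1 and -0.056 for MMRN1. In the 6 libraries PROX1 was at -0.046 and MMRN1 at -0.39.

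With 1 library left out, the log2 fold change in S9 against S6 ran from -0.12 to 0.30 for PECAM1, from -0.034 to 1.45 for APLN, from -0.51 to 0.29 for APLNR and from -0.026 to 0.56 for LYVE1. In S7 against S6 it ran from -0.0017 to 0.37 for PECAM1, from -0.43 to 0.38 for VWF, from -3.35 to 4.44 for NOS3, from -0.25 to 0.13 for SOX7, from -0.12 to 0.28 for RAMP2, from -1.71 to 0.74 for SELE, from -0.47 to 0.11 for LYVE1 and from -0.29 to 0.52 for ANGPT1. In S9 against S7 it ran from -0.34 to 0.13 for PECAM1, from -0.26 to 0.28 for CDH5, from -0.015 to 0.77 for VWF, from -0.20 to 0.38 for ENG, from -0.031 to 0.42 for ESAM, from -0.057 to 0.26 for ROBO4, from -0.21 to 0.15 for SOX18, from -0.040 to 0.63 for ECSCR, from -0.016 to 0.37 for PODXL, from -1.74 to 0.36 for APLN, from -0.10 to 0.49 for PROX1 and from -0.22 to 0.35 for MMRN1. At this depth counting error is small for most members, and the spread between 3 libraries limits the precision.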
